A study of Mus musculus with 4 samples.

Results

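Of the peaks deposited with a Malat1 pull-down experiment, 1261 had their summit within 1 kb of an annotated end of a long noncoding RNA (lncRNA) gene and more than 1 kb from both ends of every protein-coding gene. They were chosen by position alone, from the 51072 peaks on 14 autosomes (all but chromosomes 2, 9, 11, 15 and 19) of a list of 77823. A further 92 summits lay within 1 kb of a lncRNA gene end but also near a protein-coding end, and were left out by that rule. The experiment was ChIRP-seq, in which biotinylated antisense oligonucleotides capture a nuclear RNA and the DNA recovered with it is sequenced. The cells were 4T1-TGL, a line derived from a mouse mammary tumour, of BALB/c strain and wild-type genotype. The labels give 4 libraries, each alone in its group: Malat1 pull-downs titled Even and Odd, a pull-down titled LacZ (a bacterial gene that mouse cells lack), and an input titled with the Even pool. All share the line, the genotype and DMEM/F12 medium, with single reads of 76 nt.

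Malat1 is an abundant lncRNA of nuclear speckles, the bodies that store splicing factors, and it is known to lie at active genes. LncRNA genes are transcribed by the same polymerase as protein-coding genes, usually at lower levels and in fewer cell types, and many are known only as computed or cDNA-based models. Their 5' ends mark promoters and their 3' ends mark where the transcript is cut and polyadenylated.

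The data were 1 peak list from 1 merged treatment against 1 input, and the libraries merged were not given in the sources used here. Whether the LacZ pull-down was among them is not known. No peak could be compared with LacZ, so whether a peak is specific to Malat1 was not tested. After duplicate removal the treatment held 851227 tags and the input 50030325. No value below has a replicate, intervals cover counting error only, and no test between conditions was possible. A peak's tag count is the number of treatment reads in it, and its fold enrichment, taken from the authors' peak caller, divides the height at its summit by the largest background estimated around it from the scaled input. The implied input is the local input level behind that fold, in units of the genome mean, and is 1 at the lowest. DNA copy number and read mapping can both move it, and they cannot be told apart here.

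Sequences were at hand for promoter windows only, which run from 250 bases before to 50 bases after an annotated lncRNA start (RefSeq, GRCm38.p6). The summits of 89 peaks lay inside such a window. The 7 windows below include that of the strongest of them (Gm31128) and that of a gene with several peaks (Gm42015). The rest belong to the summits nearest an annotated end among peaks of at least 10 tags, and some weaker peaks lay nearer. All 7 are shown because a deposited peak lies at the very start of each of these lncRNA genes. Capitals mark the bases inside the deposited peak, and small letters lie outside it. Gm31128 lies at chr13:64343738-64344037 on the minus strand, Gm32791 at chr8:30959650-30959949 on the minus strand, and Gm52039 at chr13:47237516-47237815 on the minus strand. Foxo6os lies at chr4:120290883-120291182 on the plus strand, Gm2848 at chr13:52573176-52573475 on the minus strand, Gm40120 at chr3:107380559-107380858 on the plus strand, and Gm42015 at chr5:118843261-118843560 on the minus strand. Each is written 5′ to 3′ along its gene.
Gm31128: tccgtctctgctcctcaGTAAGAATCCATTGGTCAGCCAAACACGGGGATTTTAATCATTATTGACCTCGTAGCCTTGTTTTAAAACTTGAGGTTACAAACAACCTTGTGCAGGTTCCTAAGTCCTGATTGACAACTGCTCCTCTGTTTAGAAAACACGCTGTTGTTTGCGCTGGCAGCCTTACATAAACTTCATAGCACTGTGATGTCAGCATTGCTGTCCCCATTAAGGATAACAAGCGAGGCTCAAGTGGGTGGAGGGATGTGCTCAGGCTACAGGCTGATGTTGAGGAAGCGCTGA
Gm32791: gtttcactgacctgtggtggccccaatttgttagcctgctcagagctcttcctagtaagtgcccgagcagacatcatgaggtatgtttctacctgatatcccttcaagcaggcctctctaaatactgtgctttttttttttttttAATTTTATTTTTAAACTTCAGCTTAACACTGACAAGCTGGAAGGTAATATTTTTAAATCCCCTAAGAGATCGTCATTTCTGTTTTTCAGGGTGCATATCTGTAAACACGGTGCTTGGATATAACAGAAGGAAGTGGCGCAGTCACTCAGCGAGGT
Gm52039: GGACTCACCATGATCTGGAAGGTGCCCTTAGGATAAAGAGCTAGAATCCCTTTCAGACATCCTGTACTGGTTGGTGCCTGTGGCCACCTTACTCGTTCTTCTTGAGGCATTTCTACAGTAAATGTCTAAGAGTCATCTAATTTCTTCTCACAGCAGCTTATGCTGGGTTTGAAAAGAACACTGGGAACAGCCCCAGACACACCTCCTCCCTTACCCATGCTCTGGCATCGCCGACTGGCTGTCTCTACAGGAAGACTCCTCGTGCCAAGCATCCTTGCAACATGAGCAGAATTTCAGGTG
Foxo6os: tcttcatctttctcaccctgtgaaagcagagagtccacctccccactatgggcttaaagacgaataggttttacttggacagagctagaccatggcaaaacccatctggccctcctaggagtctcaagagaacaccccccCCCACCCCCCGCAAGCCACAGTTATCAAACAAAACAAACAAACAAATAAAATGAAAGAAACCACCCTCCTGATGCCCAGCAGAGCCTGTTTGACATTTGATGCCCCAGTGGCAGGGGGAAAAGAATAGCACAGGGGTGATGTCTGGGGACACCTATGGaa
Gm2848: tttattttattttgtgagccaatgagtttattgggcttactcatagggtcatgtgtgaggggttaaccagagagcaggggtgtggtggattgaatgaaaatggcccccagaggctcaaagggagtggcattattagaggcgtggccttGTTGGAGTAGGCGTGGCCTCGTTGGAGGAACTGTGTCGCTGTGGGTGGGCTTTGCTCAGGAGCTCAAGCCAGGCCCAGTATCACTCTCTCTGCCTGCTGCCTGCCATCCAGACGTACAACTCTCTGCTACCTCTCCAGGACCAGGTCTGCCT
Gm40120: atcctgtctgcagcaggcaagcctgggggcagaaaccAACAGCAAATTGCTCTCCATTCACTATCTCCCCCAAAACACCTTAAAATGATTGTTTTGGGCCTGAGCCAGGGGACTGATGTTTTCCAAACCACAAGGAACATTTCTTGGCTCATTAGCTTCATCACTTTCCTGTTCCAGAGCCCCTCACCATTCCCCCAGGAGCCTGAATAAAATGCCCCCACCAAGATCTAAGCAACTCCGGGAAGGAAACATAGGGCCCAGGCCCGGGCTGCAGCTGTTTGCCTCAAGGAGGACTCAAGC
Gm42015: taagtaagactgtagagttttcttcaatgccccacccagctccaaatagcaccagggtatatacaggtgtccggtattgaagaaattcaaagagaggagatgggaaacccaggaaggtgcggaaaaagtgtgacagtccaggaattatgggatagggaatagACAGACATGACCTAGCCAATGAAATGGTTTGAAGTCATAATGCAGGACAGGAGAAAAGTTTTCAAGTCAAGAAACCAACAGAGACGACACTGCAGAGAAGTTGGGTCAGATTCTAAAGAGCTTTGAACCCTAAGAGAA

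The Gm31128 peak (13:64343671-64344020) was the strongest of these, with 52 tags and a fold of 754, and its summit lay 66 bases before the start. It covered 283 of the 300 bases. The Gm52039 peak, with 39 tags and a fold of 367, covered the whole window, and its summit lay 15 bases after the start. The Gm32791 peak (19 tags, fold 404) began downstream of the run of T that precedes its capitals and reached into the gene. The Foxo6os peak held 11 tags at a fold of 323, the Gm40120 peak 12 tags at 157, the Gm2848 peak 11 tags at 229 and the Gm42015 peak 6 tags at 161. The windows differed in base composition: G and C made up 41.3% of the Gm32791 window and 53.3% of the Gm2848 window. Their CpG counts ran from 2 in Foxo6os and Gm40120 to 7 in Gm31128, so none of the 7 approached the median of 13 in the windows of protein-coding genes.

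As a set, the 98 windows that held such a summit (91 genes, some with more than 1 start) had base contents close to those of other lncRNA windows. Their median GC content was 50.7%, against 48.3% in all 8196 lncRNA windows of the same chromosomes and 56.3% in the windows of protein-coding genes. The GC box GGGCGG, searched like all motifs on both strands, was found in 13 of 98 (13.3%), against 16.0% of lncRNA windows and 35.7% of all 32851 windows in the table. The TATA motif TATAAA was found in 13 (13.3%), against 15.4% and 13.6%, and CCAAT in 33 (33.7%), against 36.5% and 37.4%. The simple repeats GAGAGA and CACACA were each found in 22 windows (22.4%), against 26.9% and 25.4% of lncRNA windows and 23.9% and 21.1% of all. A run of 20 bases shared with at least 9 other promoter places was present in 7 windows (7.14%), against 9.82% of lncRNA windows. Among the 7 windows printed, only the Foxo6os peak held such a run, found at 13 places. Peaks in windows were no stronger than the set as a whole. At least 10 tags were held by 12 of 89 (13.5%), against 20.5% of the set and 20.1% of all peaks. Their median fold was 133, against 137 for the set, and neither difference was tested.

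Across the whole set, strength was close to that of peaks elsewhere. The median peak at a lncRNA end held 4 tags, as did the median of all peaks on these chromosomes, and both were 134 bp long with a summit height of 3 tags. Tags ran from 3 to 466 and folds from 21.2 to 899. The median fold was 137 (95% interval of the median 130 to 142, n = 1261 peaks), against 145 over all peaks, 135 near protein-coding ends and 149 outside annotated genes. At least 10 tags were present in 258 peaks (20.5%, exact binomial interval 18.3 to 22.8), with a background of 20.1% of all peaks. At least 30 tags were present in 41 (3.25%), with a background of 2.98%, and a fold of at least 300 in 130 (10.3%), with a background of 11.3%. All 3 shares lay near their backgrounds. Peaks of 3 tags, the fewest that any peak holds, numbered 530 (42.0%, interval 39.3 to 44.8), against 38.9% of all peaks. The plot of peak strength by position shows these shares beside those of peaks at protein-coding ends and outside genes.

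**Figure D1:**
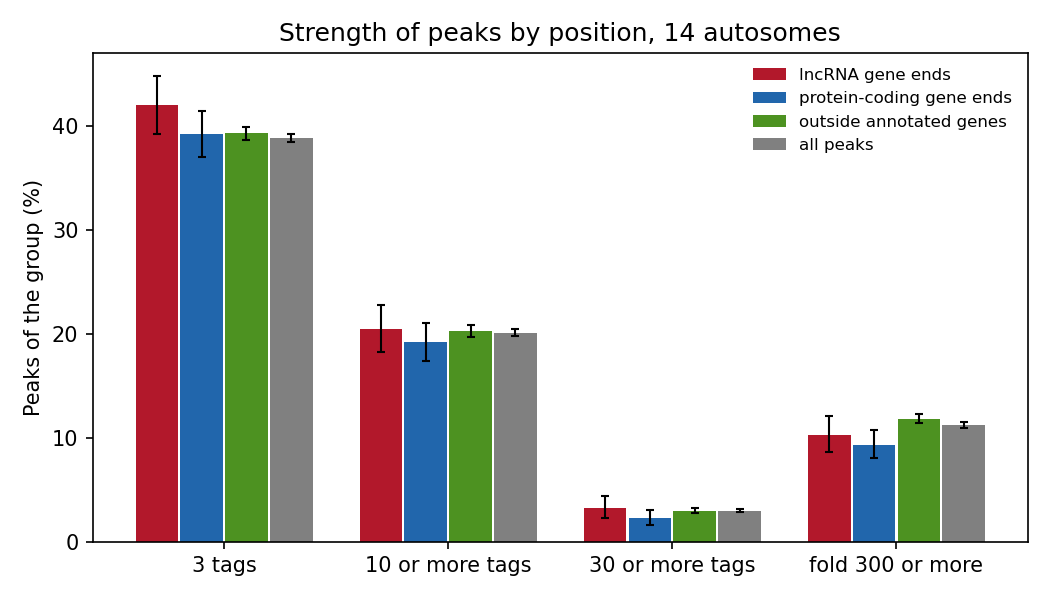
Share of peaks (%) that held 3 tags, 10 or more tags, 30 or more tags, or a fold of 300 or more, for peaks at lncRNA ends (n = 1261), at protein-coding ends (n = 1875), outside annotated genes (n = 21563) and all peaks of the 14 autosomes (n = 51072). Error bars are 95% exact binomial intervals for counting error; at 10 or more tags the groups lie between 19.2% and 20.5%.

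Summits were somewhat denser within 1 kb of lncRNA ends than at 5 to 20 kb from them, and the same held at protein-coding ends. Of the sequence within 1 kb of a lncRNA end and over 1 kb from coding ends, 32.2 Mb held the 1261 summits, or 39.1 per Mb (exact Poisson interval 37.0 to 41.4). At 5 to 20 kb from lncRNA ends the density was 33.4 per Mb (32.7 to 34.2), so that it was 1.17 times as high at the ends. Beyond 20 kb it was 26.0 per Mb (25.7 to 26.3). Within the first 1 kb the density showed no slope, with 39.3, 41.2, 37.8 and 38.3 per Mb in 4 successive steps of 250 bp. Protein-coding ends measured the same way held 35.8 per Mb (34.2 to 37.5) within 1 kb and 32.2 at 5 to 20 kb, a ratio of 1.11. Within 1 kb, the intervals of the 2 kinds of end overlap slightly, and no test of their difference was made. Runs of unknown or unmappable bases could not be taken out of the lengths, and their part in these densities was not tested.

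**Figure D2:**
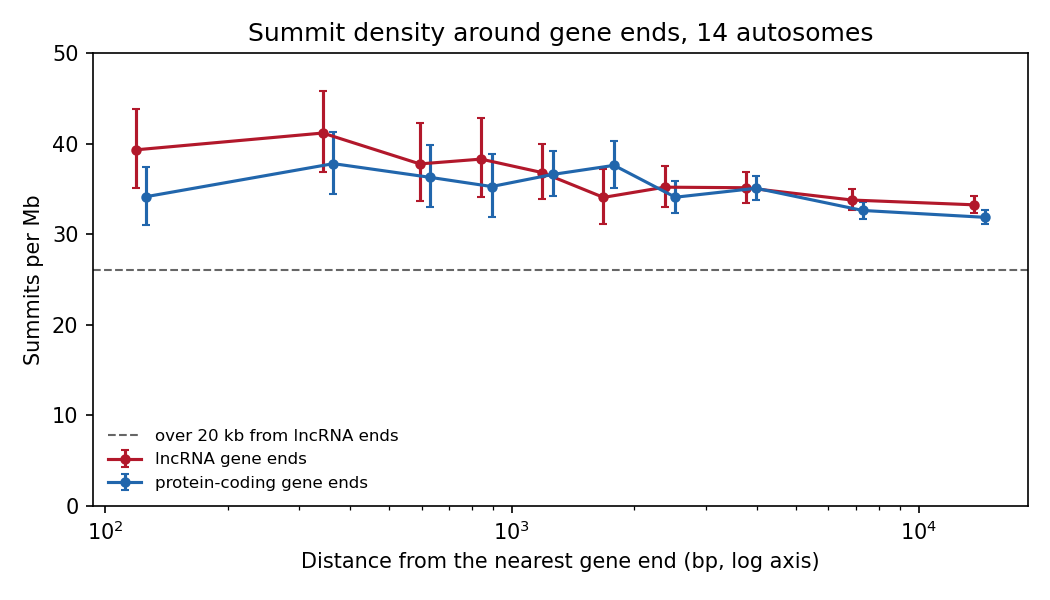
Summits per Mb against the distance from the nearest lncRNA gene end (red) or protein-coding gene end (blue) on a log axis; points stand near the middle of each distance step and bars are 95% Poisson intervals. Red starts at 39.3 per Mb in the first 250 bp and falls to 33.2 at 10 to 20 kb, and the dashed line marks 26.0 per Mb beyond 20 kb of lncRNA ends.

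The ratio was larger outside protein-coding genes than inside them, a difference that was not tested. Outside protein-coding genes, 899 summits at lncRNA ends gave 38.6 per Mb (36.1 to 41.2), against 30.5 (29.6 to 31.4) at 5 to 20 kb, a ratio of 1.26. Inside protein-coding genes, 362 summits gave 40.6 per Mb (36.5 to 45.0), against 38.8 (37.5 to 40.1), a ratio of 1.05 with overlapping intervals. Of all the peaks at lncRNA ends, 28.7% lay inside a protein-coding gene, with a background of 46.8% of all peaks. That share follows the rule, since only 8.92 of the 32.2 Mb of sequence near lncRNA ends lies in such genes. Density at lncRNA ends was similar inside and outside them (40.6 and 38.6 per Mb, with overlapping intervals). By distance from the nearest coding end, the ratio was 1.07 at 1 to 10 kb, with overlapping intervals (41.8 per Mb, 37.4 to 46.6, against 39.2, 37.6 to 40.9). It was 1.19 at 10 to 100 kb (41.0 against 34.6 per Mb) and 1.22 over 100 kb (32.7 against 26.7). For peaks with at least 10 tags the ratio was 1.21 (8.01 per Mb, interval 7.06 to 9.05, against 6.64), and for peaks with an implied input of at most 1.5 it was 1.15. For peaks of more than 3 tags it was 1.10, with intervals that just overlap (22.7 per Mb, 21.1 to 24.4, against 20.6, 20.04 to 21.2). For peaks with at least 30 tags it was 1.16, with overlapping intervals (0.913 to 1.73 against 0.973 to 1.24 per Mb).

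By chromosome, density at lncRNA ends was higher than at 5 to 20 kb on 12 of the 14. The ratio ran from 0.969 on chromosome 17 to 1.35 on chromosome 6, with a median of 1.19, and chromosome 5 was the other exception at 0.997. The highest density at lncRNA ends was 51.9 per Mb on chromosome 4 and the lowest 25.5 on chromosome 14. The median implied input of the peaks of a chromosome ran from 1.13 on chromosomes 14 and 18 to 1.57 on chromosome 12, where lncRNA ends held 49.3 per Mb. It did not follow the densities throughout. Chromosome 4 had 1.35, below the 1.46 of chromosome 5, where lncRNA ends held 42.6 per Mb. The part of implied input in the chromosome levels was not tested. The set itself had a median implied input of 1.35, against 1.33 over all peaks, and 77 of its peaks (6.11%) had 2 or more, against 5.75%.

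**Figure D3:**
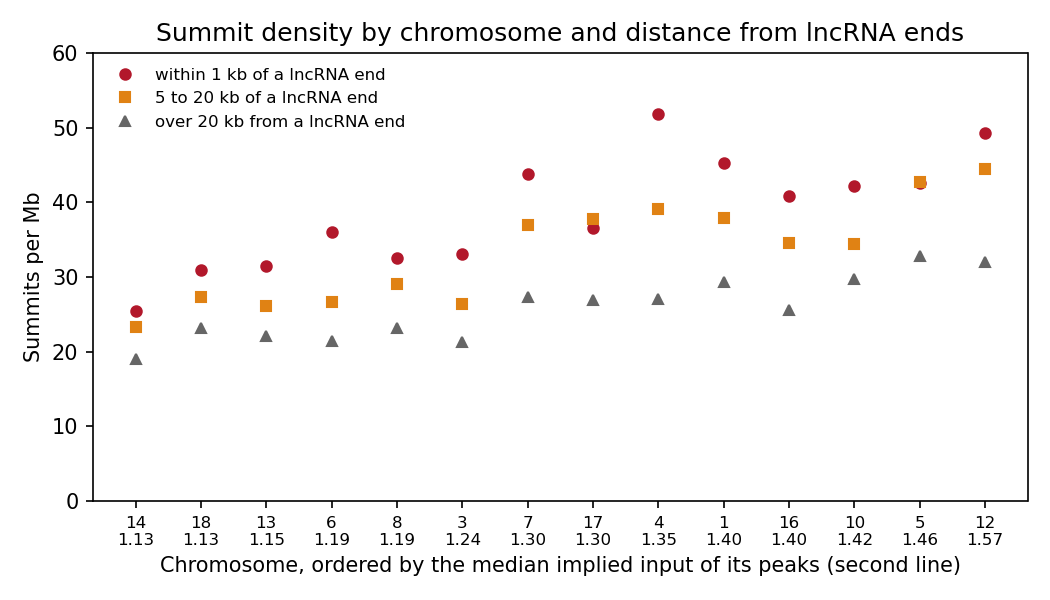
Summits per Mb within 1 kb (circles), at 5 to 20 kb (squares) and over 20 kb (triangles) from lncRNA gene ends on each of the 14 autosomes, which are ordered by the median implied input of their peaks (second line of the axis). Circles lie above squares on 12 chromosomes, with 5 and 17 as the exceptions, and triangles are lowest on all 14.

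Summits were also counted by side, along the direction of transcription. A strand was available for 6766 of the 9158 lncRNA genes. Of the 940 peaks whose nearest gene had one, 469 were at a 5' end and 471 at a 3' end. These counts are close, but less sequence was eligible around 5' ends than around 3' ends, so densities are given by side. Around 5' ends, the 1000 bp upstream held 42.3 summits per Mb (37.3 to 47.9) and the 1000 bp inside the gene 39.7 (34.8 to 45.1). The 400 bp on either side held 102 summits, or 43.02 per Mb (35.1 to 52.2), and 92, or 39.1 (31.5 to 47.9), so both widths gave overlapping intervals. At 3' ends, the last 1000 bp of the gene held 42.5 (37.6 to 47.8) and the 1000 bp beyond it 33.8 (29.4 to 38.6). Most of this difference lay next to the end. The last 400 bp of the gene held 129 summits, or 49.97 per Mb (41.7 to 59.4), and the first 400 bp beyond it held 72, or 27.8 (21.8 to 35.1).

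The width of 400 bp was chosen after these values were seen, and no test of 5' against 3' ends was made. Among summits of more than 3 tags the counts were 70 before and 43 after, and among those of at least 10 tags 23 and 14. Protein-coding 3' ends with a strand (11604 genes) showed no such step: 30.5 per Mb (25.6 to 36.0) in the last 400 bp and 36.9 (31.5 to 42.9) beyond. No test of the difference between the gene kinds was made.

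**Figure D4:**
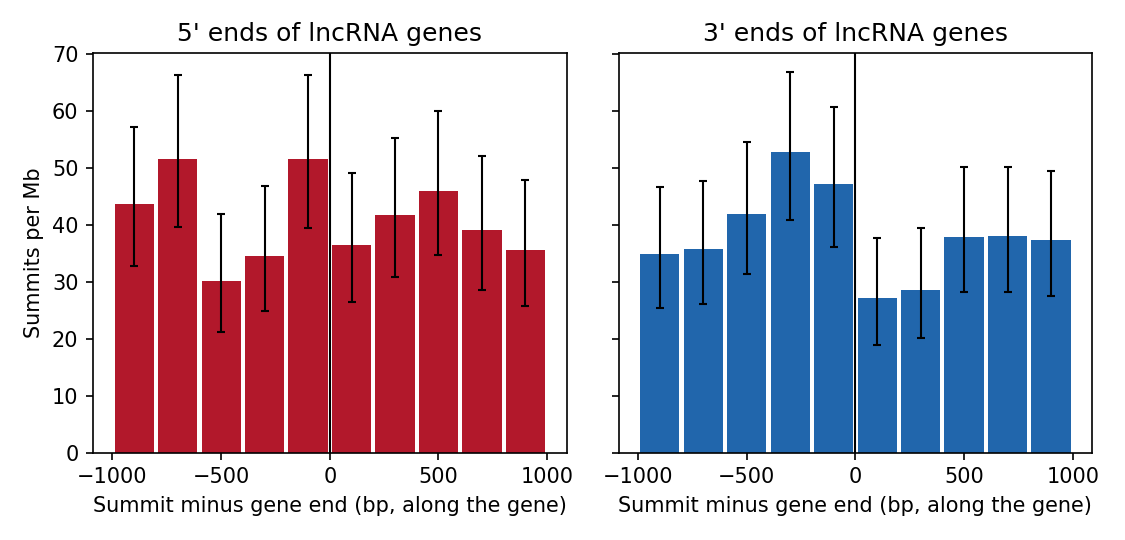
Summits per Mb in steps of 200 bp along the gene around the 5' ends (left) and 3' ends (right) of 6766 lncRNA genes; negative positions lie before the end in the direction of transcription, and bars show 95% Poisson intervals. At 3' ends the 2 steps just inside the gene reach 52.7 and 47.2 per Mb and the 2 steps just beyond it 27.1 and 28.6.

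Seen by gene, 1163 of 9158 lncRNA genes (12.7%, interval 12.02 to 13.4) had one of these peaks, and 1241 (13.6%) had any summit within 1 kb of an end. The background among 14592 protein-coding genes was 12.4% with a summit within 1 kb of an end. The share was 12.53% in the shortest of 4 equal groups of lncRNA genes by length and 12.45% in the longest. A single peak was found at 1041 genes, 2 peaks at 118 and 3 peaks at 4. The peaks spread over both sides of the ends, with 639 (50.7%) inside their lncRNA gene and 113 (8.96%) spanning its end. Just inside the limit of the rule, the 101 peaks at 900 to 1000 bp had a median fold of 132. The 110 peaks up to 100 bp beyond it had a median fold of 143.

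The strongest peaks stood at gene models with no known function, and some had a gene of known role as their nearest coding gene. Several of these genes were far away. Over the set, the median distance to a coding end was 28.85 kb (5th to 95th percentile 2.2 to 279.3 kb). Of the 15 highest folds 13 are described, and among them 3 peaks led at a fold of 778, each with an implied input of 1.00. The first, at 2810049E08Rik on chromosome 13, held 40 tags, 261 kb from Mef2c, a transcription factor of muscle and neurons. The second, at Gm34307, held 28 tags and lay 12.6 kb from Ntrk2, the receptor for the neurotrophin BDNF. The third, at AA388235, held 22 tags and lay 10.4 kb from H2-K1, an MHC class I gene.

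At Gm33487 on chromosome 12, a peak of 66 tags and fold 768 lay 474 bp inside the 5' end, 2.77 kb from Lrrc9. At Gm36603 on chromosome 3, a peak of 48 tags and fold 712 lay 509 bp inside the 3' end, 8.15 kb from Lef1, a nuclear effector of Wnt signalling. At 4930522O17Rik on chromosome 4, a peak of 41 tags and fold 711 lay 795 bp upstream of the 5' end, 85.4 kb from the cholesterol exporter gene Abca1. These 3 stood at the 5' end, the 3' end and upstream of the gene, so the strong peaks did not share one kind of position.

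Gm26535 on chromosome 10 held 59 tags at a fold of 705, in its last 228 bp and 200 kb from Marcks. The others were Gm31128, whose sequence is given above, Gm41753 (fold 700, 34 tags), Gm39099 (680), Gm42264 (676), 1700012D14Rik (657, 62 tags) and 4932437C15Rik (621), the last inside the corepressor gene Ctbp2. The nearest coding genes of Gm41753, Gm39099, Gm42264 and 1700012D14Rik were Wdr7 (4.87 kb), Acadsb (25.8 kb), Manea (511 kb) and Eif4g2 (35.6 kb). The implied inputs of these 13 peaks ran from 1.00 to 1.46, so none reached 2.

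Ordered by tags, the set was led by a different kind of peak. The peak at the 3' end of AY036118 on chromosome 17 (39847470 to 39848877, 1408 bp) held 466 tags, but its fold of 21.2 was the lowest of all 1261 and its implied input was 62.0. It overlaps Rn18s-rs5 (39846354 to 39848202), an 18S ribosomal RNA related sequence. Ribosomal RNA genes occur in many copies in the genome, and the part of those copies in these tags was not tested. After it, among the peaks described, came 4833411C07Rik with 84 tags (fold 556, implied input 2.15) and Gm40783 inside Hmga2, a chromatin protein gene, with 75 tags (fold 414, implied input 2.46). Gm40444 inside Mthfd1, a gene of folate metabolism, held 59 tags at a fold of 491, and Gm34207 held 54 at 587. The plot of tags against fold shows the AY036118 peak apart from all others.

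**Figure D5:**
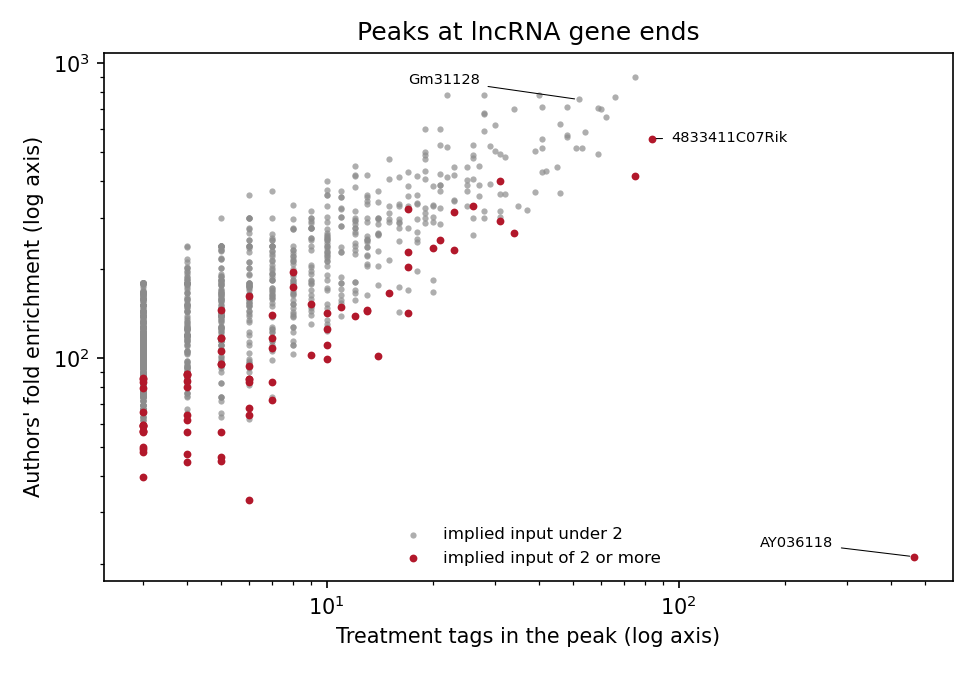
Fold enrichment against treatment tags for the 1261 peaks at lncRNA gene ends, both on log axes, with 1 point a peak and the 77 peaks of implied input 2 or more in red. Fold rises with tags, and red points lie low for their tags, which follows from the definition of implied input. AY036118 (466 tags, fold 21.2) is alone at the lower right, and 4833411C07Rik (84 tags, fold 556) is the red point of next most tags.

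Summits almost on an annotated end were not stronger than the rest. The 136 peaks within 100 bp of an end had a median fold of 128 (interval 119 to 145, which holds that of the set), and 20 of them (14.7%, interval 9.22 to 21.8) held at least 10 tags. The nearest of these 20 was 5 bp inside Gm46919 (10 tags, fold 185), followed by Gm2848, Foxo6os and Gm52039 from the windows above. Foxo6os is named for its place opposite the transcription factor gene Foxo6. Others were Gm41934 (30 bp, fold 231) with Gli2, a Hedgehog effector, as its nearest coding gene, Gm3596 (32 bp, 31 tags, fold 292), Gm29928 (34 bp, fold 302) and Rps18-ps4 (35 bp, fold 284). Rps18-ps4 is a lncRNA in RefSeq despite its pseudogene name.

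Genes with 3 peaks were Gm38403 on chromosome 10, Gm3596 on chromosome 12, Gm35680 on chromosome 14 and Gm42015 on chromosome 5. Their peaks were mostly small. Gm38403 held 5, 5 and 3 tags at folds of 147, 128 and 65.2, and Gm35680 held 3, 6 and 3 at 180, 176 and 82.1. Gm42015 held 11, 6 and 3 at 281, 161 and 76.5. Gm3596, inside the DNA repair gene Rad51b, had 1 strong peak of 31 tags beside 2 of 3 tags at folds of 107 and 65.2.

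LncRNA genes with well-studied functions had few of these peaks. Of a list of 119 such names, 58 were lncRNA genes on these chromosomes, among them the imprinted Meg3, H19, Kcnq1ot1 and Airn, the Hox cluster transcripts Hottip and Hotairm1, and the growth-arrest transcript Gas5. A peak of the set was present at 1 of the 58 (1.72%, interval 0.0436 to 9.24), against 12.7% of all lncRNA genes, and a second, Gata6os, had a summit that also lay near a coding end. The one was Miat, which forms foci in the nucleus, with 10 tags and a fold of 236 at 856 bp beyond its 3' end (5:112212272-112212478). The sequence near their ends and over 1 kb from coding ends came to 3.45 kb per gene, against 3.52 kb for all, which gives 5 per Mb (0.127 to 27.9) against 39.1 per Mb.

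In gene bodies the share was not lower: 22 of the 58 (37.9%, interval 25.5 to 51.6) held a summit, against 32.1% of all lncRNA genes, a value inside that interval. Body length also differed, with 2.937 Mb in the 58 genes and 161.7 Mb in all 9158. Its part in these shares was not tested. Per length, the bodies of the 58 held fewer, with 20.4 per Mb (15.6 to 26.3) against 31.0 (30.2 to 31.9). Snhg14, a transcript that hosts small nucleolar RNAs, weighs heavily in this lower value. Its body took 1180 kb of their 2.937 Mb and held 7 of their 60 summits. The density without Snhg14 was not computed, so the lower value is not shown for the list as a whole. Sox2ot, which spans the stem cell gene Sox2, held 3 summits, of which the strongest had 30 tags and a fold of 533. The list was drawn up by reputation, it is short, and no test of the difference was made.

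The shares also differed by kind of name, and no test of these differences was made. Gm gene models had a peak at 968 of 7304 (13.3%, interval 12.5 to 14.1), Rik cDNA clones at 137 of 1327 (10.3%, 8.74 to 12.1) and LOC models at 20 of 217 (9.22%, 5.72 to 13.9). The sequence near ends and over 1 kb from coding ends also differed, at 3.6, 3.41 and 2.71 kb per gene in that order. Per Mb of it the intervals overlapped: 40 (37.7 to 42.5), 34.1 (28.9 to 39.9) and 39 (24.7 to 58.6). Hosts of small nucleolar RNAs had one at 0 of 9 genes, which allows up to 33.6% (upper bound of the exact interval), and microRNA hosts at 1 of 9, Mir124-2hg with 3 tags. Transcripts named as opposite to a coding gene had one at 13 of 123 (10.6%, 5.75 to 17.4), or 36.9 peaks per Mb (20.2 to 61.9) with 3.08 kb per gene. Their 14 peaks had a median fold of 240, against 137 for the set, and 7 of the 14 held at least 10 tags (50%, exact interval 23 to 77, against the background of 20.1%). Besides Foxo6os, and named after their values were seen, they included Fam120aos (12 tags, fold 419), Smc2os (18 tags, 415), named for the gene of a condensin subunit, Slc6a19os (10 tags, 398) and Arl4aos (16 tags, 333).

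The remaining names, which mix clone names with names of function, had a peak at 23 of 166 genes (13.9%, 8.99 to 20.1), and 8 of their 25 peaks held at least 10 tags (32%, exact interval 14.9 to 53.5, against the background of 20.1%). Those of at least 10 tags stood mostly at clone names, such as BC042761 (28 tags, fold 317) and AA545190 (20 tags, fold 384), both named after their values were seen. Names of function, again named after their values were seen, include Tunar, a transcript of neural and stem cells (4 tags, fold 87.6, 560 bp from its end), and Chaserr, which controls its neighbour Chd2 (3 tags, fold 79.2). The pluripotency-associated Platr7 held 6 tags at a fold of 241 and Platr9 held 3 at 97.3. Mira, in the Hoxa cluster, shared 1 peak of 3 tags and fold 156 with Hoxaas3, the single gene with a peak among 3 with antisense names.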

How the data were processed

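ChIRP-seq of 4T1-TGL cells gave 4 libraries in 4 groups of 1. The authors deposited 1 peak list made with MACS 1.4.4, per the file headers, from a merged treatment (988411 tags, 851227 after duplicate removal) and an input scaled to it, at a p cutoff of 1e-05. Coordinates are on mm10 (GRCm38), per the submitters' processing notes. The aligner was not given in the sources used here. Values are as deposited: tag counts, fold ratios (summit height over local input), the score of -10 times log10 p, a false discovery rate of 0 percent for every peak, and the summit signal (tag pileup).

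Genes came from RefSeq GRCm38.p6. Of the lncRNA genes, 66 end within the first 3 Mb of a chromosome, where no summit lay, and stayed in the counts. Strands came from the promoter table (6766 of 9158 lncRNA genes). Implied input is summit height over fold over 0.0167 tags, the genome mean. Eligible lengths were counted at every 10 bp. Intervals are 95% exact binomial, Poisson or order-statistic. Code was checked on simulated data (Python 3.11.15, pandas 2.3.3, SciPy 1.17.1). Named genes were the 15 highest folds, 10 highest tag counts, 10 nearest summits of at least 10 tags, 5 genes with most peaks, and listed lncRNAs; 2 of the 15 are not reported here. The set and lists were chosen with earlier results of these data known. Alternatives varied the distances, peaks, chromosomes and gene models. Peaks are not replicates, so no test was run.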

Additional observations from a re-analysis of the deposited data

How the results depend on the processing

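The number of peaks followed the rule and the peaks admitted: 660 at 500 bp, 2330 at 2 kb, 535 at a score of at least 100, 731 with more than 3 tags, 582 at or above the median fold, 839 at an implied input of at most 1.5, and 194 for genes other than Gm and LOC models. The share of lncRNA genes with a peak moved with it, to 6.85%, 21.99%, 5.76%, 7.67%, 6.21%, 8.71% and 10.69% in that order, and to 10.81% at 5 kb from coding ends, 13.55% with no such distance and 13.55% on all autosomes. Genes beyond the first 3 Mb, an alternative added after seeing the data, gave 12.79%. The median fold was 226.2 at the higher score, 179.5 with more than 3 tags, 211.2 at or above the median fold, 153.9 at low implied input and 127.5 on all autosomes. The share with at least 10 tags was 48.22%, 35.29% and 41.92% in the first 3 of these, which remove weak peaks by construction, and 23.2% without Gm and LOC models. The share inside coding genes was 26.21% at 5 kb from coding ends and 24.74% without Gm and LOC models. With a median of 4 tags a peak, differences between single peaks were not resolved at this depth. No paired analysis was possible because each group has 1 library and the list is merged.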

Other observations

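Some places held several peaks at different lncRNA genes. These were picked after their values were seen, and are given as values. The 1261 peaks had 1002 different nearest coding genes, and 788 of these had 1 peak. The most, 7 each, had Rad51b (4 lncRNA genes, median implied input 1.89) and Dio3, the deiodinase gene that ends an imprinted cluster (5 lncRNA genes, 2.00). Tbx3, a transcription factor gene of mammary development, had 5 at 4 lncRNA genes with a median implied input of 1.4. Of these, Gm16063 had peaks of 28 tags (fold 589) and 3 tags, and Tbx3os1 and AW549542 had peaks of 7 and 3 tags (folds 241 and 71.6). Near Abca1, besides 4930522O17Rik, the cholesterol-linked lncRNA Lexis1 had a peak of 6 tags and fold 158.

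Of the peaks, 3 lay within 1 kb of a microRNA hairpin. They are given as values only, since no share over all peaks stands beside this count. The peak at Gm49890 (18 tags, fold 336) was 189 bp from Mir31, a microRNA studied in breast cancer metastasis. The peak at Gm51823 (18 tags, fold 269) was 506 bp from Mir6916, and that at Gm31251 (3 tags, fold 88.7) was 182 bp from Mir208b, a microRNA of the heart.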
